A study of Mus musculus with 12 samples.

Results

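The genes described here are those of the insulin-like growth factor (IGF) system that the series' count table lists under the symbols Igf1 (a ligand), Igf1r (the receptor) and Igfbp1, Igfbp2, Igfbp3, Igfbp4, Igfbp5, Igfbp6 and Igfbp7 (the binding proteins). They were taken by symbol, with earlier results of these data known, and all 9 were found among the 24421 symbols of the table. A filter on low counts kept 15246 genes for testing and 8 of the 9 members. Igfbp1 did not pass and is described from its counts. The second ligand gene, Igf2, is not among the chosen symbols and is given with the rest of the pathway.

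RNA was sequenced from whole lungs of wild type CD-1 mouse fetuses that had been dissected at embryonic day 12.5 and cultured in drops of Matrigel between air and medium. Day 0 was the day after isolation, and the Day 0 libraries (n = 4) were taken then. Day 2 control libraries (n = 4) came from lungs kept for 2 more days with PEG-HCC, a polyethylene glycol gel that light from a two-photon microscope can crosslink, added but left uncrosslinked. Day 2 compression libraries (n = 4) came from lungs that crosslinked PEG-HCC surrounded over the same time so as to inhibit their growth. Day 0 lungs are labelled as controls, and the labels do not say whether the polymer had been added to them. Crosslinking and restriction of growth differ together between the Day 2 groups and cannot be told apart, and the Day 0 libraries serve as the reference for both Day 2 groups.

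As background, IGF1 and IGF2 are secreted growth factors that bind the receptor tyrosine kinase IGF1R, which signals through the insulin receptor substrates to PI3K, AKT and mTOR and through the MAP kinases. Most IGF outside cells is held by binding proteins, which carry it and keep it from the receptor until proteases such as pappalysins release it, and some of which also bind matrix or cells. In the fetal lung the ligands are made mainly by mesenchyme, and mice without Igf1r are small and die at birth of respiratory failure.

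In the GRCm38 assembly (also called mm10) Igf1 lies on chromosome 10 (87858265 to 87937042, plus strand) and Igf1r on chromosome 7 (67952827 to 68233668, plus strand). The binding proteins include 2 tail-to-tail neighbours. Igfbp1 (chromosome 11, 7197782 to 7202546, plus strand) and Igfbp3 (chromosome 11, 7206086 to 7213923, minus strand) are 3539 bases apart. Igfbp2 (chromosome 1, 72824503 to 72852474, plus strand) and Igfbp5 (chromosome 1, 72857932 to 72874884, minus strand) are 5457 bases apart, and the annotation places 0 genes between either pair. Igfbp4 lies on chromosome 11 (99041244 to 99054392, plus strand), Igfbp6 on chromosome 15 (102144362 to 102149511, plus strand) and Igfbp7 on chromosome 5 (77349240 to 77408041, minus strand). Of their exonic length, 7.0% of Igfbp7 overlaps Polr2b on the opposite strand, and the other members overlap no annotated gene.

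The 250 bases upstream of the start site are shown for 4 members, taken from the RefSeq promoter table for GRCm38.p6, in which 9 of 9 members were found. Igfbp7 and Igfbp6 are shown for the largest rises among the members, Igfbp3 for the largest fall, and Igfbp1 as the neighbour of Igfbp3 with a pattern of its own. Each sequence is written 5′ to 3′ on the gene's strand, and capitals mark matches on either strand to 4 motifs. These are the TATA box with the letters TATAAA, the SP1 site with the letters GGGCGG, the forkhead site with the letters GTAAACA, and CAAAACAA, part of the insulin response element known in the promoter of Igfbp1. Matches to different motifs do not overlap in these windows.
Igfbp1: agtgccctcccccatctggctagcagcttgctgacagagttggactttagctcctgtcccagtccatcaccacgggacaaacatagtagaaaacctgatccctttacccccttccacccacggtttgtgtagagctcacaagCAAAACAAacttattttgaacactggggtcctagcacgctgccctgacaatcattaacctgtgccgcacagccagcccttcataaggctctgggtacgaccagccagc
Igfbp3: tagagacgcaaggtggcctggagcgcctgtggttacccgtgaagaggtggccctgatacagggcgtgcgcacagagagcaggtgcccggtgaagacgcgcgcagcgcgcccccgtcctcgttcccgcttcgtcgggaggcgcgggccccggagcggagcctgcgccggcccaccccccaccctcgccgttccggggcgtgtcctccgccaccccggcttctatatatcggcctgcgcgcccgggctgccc
Igfbp6: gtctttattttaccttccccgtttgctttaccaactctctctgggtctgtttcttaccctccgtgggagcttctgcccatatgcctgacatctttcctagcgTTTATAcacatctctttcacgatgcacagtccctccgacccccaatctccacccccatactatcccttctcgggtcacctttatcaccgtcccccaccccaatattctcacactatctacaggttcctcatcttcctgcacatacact
Igfbp7: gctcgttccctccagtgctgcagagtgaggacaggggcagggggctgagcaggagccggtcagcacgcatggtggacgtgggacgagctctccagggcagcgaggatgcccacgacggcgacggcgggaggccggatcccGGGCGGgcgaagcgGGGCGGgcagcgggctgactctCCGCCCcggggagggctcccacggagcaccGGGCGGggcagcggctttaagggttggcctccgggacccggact
The windows are chr11:7197537-7197786 (plus strand) for Igfbp1, chr11:7213924-7214173 (minus) for Igfbp3, chr15:102143936-102144185 (plus) for Igfbp6 and chr5:77408046-77408295 (minus) for Igfbp7. Igfbp1 held CAAAACAA 1 time, a motif found in 2.21% of the 32851 windows of this length in the table. Igfbp7 held GGGCGG or its complement 4 times, and 32.7% of windows held it at least 1 time. Igfbp6 held TATAAA 1 time, on the other strand (12.4% of windows), although its RefSeq start lies 176 bases upstream of the GENCODE start. Igfbp3 held 0 matches to any of the 4 motifs. The neighbours Igfbp3 and Igfbp1 differed in base composition, with 32 and 5 CpG dinucleotides in the window. Igfbp7 had 26 and Igfbp6 had 7, where the median over all windows was 6. A match is a stretch of letters and was not tested as a binding site.

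Counts per library ran from 13979871 to 33249761 at Day 0, from 15452117 to 30805341 for the Day 2 controls and from 25680019 to 31739019 for the compression libraries. The lung identity given by the labels was met in all 12 libraries, with Nkx2-1, the transcription factor of lung epithelium, at 158 to 264 CPM (counts scaled to a common library total) and Tbx4, a factor of lung mesenchyme, at 172 to 248 CPM. Control replicate 4 also held liver transcripts, with 14 liver markers summing to 1732 CPM against 0.837 to 2.07 CPM in the other controls. Compression replicates 2 and 3 resembled each other more than other pairs of a group did (mean chi-square per gene 4.09, against 7.51 to 123), and their labels share a number with the letters A and B. The labels do not say that libraries came from separate animals, so p-values measure only the spread between these samples. Libraries also differed in the level of long against short transcripts. The mean log2 CPM of the 1465 longest tested genes (at least 9832 exonic bases) minus that of the 1464 shortest (at most 1708 bases), called the length index, lay between 3.17 and 3.37 at Day 0, between 3.02 and 3.22 in controls and between 2.82 and 3.08 under compression. Compression and Day 0 do not overlap in it, so in a fit with the index as a covariate the effects of the group and of the index cannot be fully told apart.

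Per length, Igfbp5 was the most abundant binding protein transcript in every group. Levels are given here as RPKM (CPM divided by the exonic length in kilobases), the only scale on which genes are compared with each other. At Day 0 Igfbp5 stood at 335 ± 31.5 RPKM (SD, n = 4, as for all group values), followed by Igfbp4 at 72.8 ± 4.78, Igfbp2 at 50.6 ± 9.55 and Igfbp3 at 39.4 ± 15.6 RPKM. The ligand Igf1 (17.5 ± 3.11 RPKM) and the receptor Igf1r (13.3 ± 0.969 RPKM) were lower, and Igfbp7 (3.35 ± 0.552), Igfbp6 (0.903 ± 0.434) and Igfbp1 (0.127 ± 0.0412 RPKM) were the lowest. Neighbours in this order overlapped between libraries for Igfbp2 with Igfbp3 and for Igf1 with Igf1r, and the other neighbours did not overlap.

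At Day 2 the order had changed in the middle. In controls Igfbp5 (299 ± 54.5 RPKM) was followed by Igfbp2 (65.3 ± 15.9) and Igfbp4 (56.5 ± 6.13), whose libraries overlapped. Igfbp7 (26.3 ± 3.23), Igf1 (25.9 ± 6.05) and Igfbp3 (19.4 ± 3.45 RPKM) came next and overlapped each other in this order, but neither Igfbp4 above them nor Igf1r below them. Under compression the order was the same, with Igfbp5 at 254 ± 32.0, Igfbp2 at 73.9 ± 21.0, Igfbp4 at 58.6 ± 2.68, Igfbp7 at 31.5 ± 6.73, Igf1 at 24.8 ± 5.18 and Igfbp3 at 21.2 ± 2.88 RPKM. Igf1r (12.2 ± 0.333 and 11.5 ± 0.843) and Igfbp6 (3.31 ± 1.33 and 4.00 ± 1.35 RPKM in control and compression) stood below them. Igfbp7 had thus moved from below both Igf1 and Igf1r at Day 0 to above Igf1r at Day 2.

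The summed level of the 7 binding protein genes overlapped between the groups, while its makeup differed. The sum lay between 447 and 532 RPKM at Day 0, between 449 and 533 in controls and between 430 and 461 under compression. Igfbp7 made up 0.602% to 0.759% of the sum at Day 0. The control libraries stood at 4.80% to 6.83% and the compression libraries at 4.78% to 7.97%, so that neither Day 2 group overlapped Day 0. Igfbp3 went the other way, with 6.01% to 11.7% at Day 0, against 3.06% to 5.12% in the control libraries and 3.8% to 5.37% in the compression libraries, again without overlap. Igfbp5, the largest share, held 64.6% to 69.1%, 53.5% to 69.8% and 51.2% to 67.2% in the same order of groups. Igfbp2 held 7.59% to 12.3%, 9.72% to 18.1% and 11.2% to 22%, and the ranges of both genes overlapped in all 3 groups. These shares are a description without a test.

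**Figure D1:**
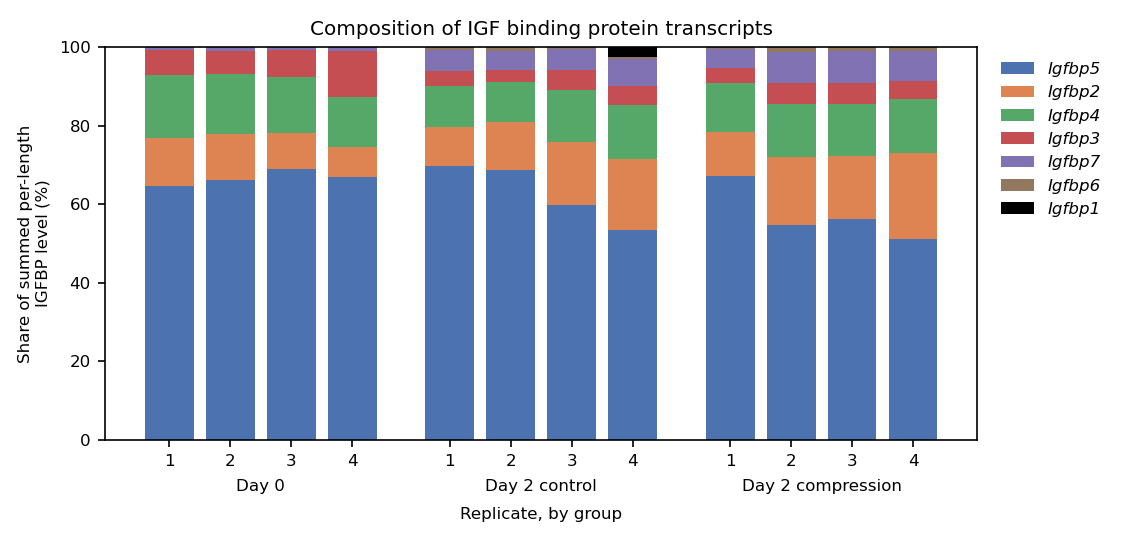
Share of each binding protein gene in the summed RPKM of the 7 Igfbp genes (percent, vertical axis) in each of the 12 libraries. Igfbp5 takes the largest share in every library, and the share of Igfbp7 is below 1% in the 4 Day 0 libraries and between 4.78% and 7.97% in the 8 Day 2 libraries.

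Each Day 2 group was compared with Day 0, which asks how the system changed while the explants grew in culture, without and with restriction. Igf1, Igfbp6 and Igfbp7 rose and Igfbp3 and Igfbp4 fell in both comparisons, and Igf1r and Igfbp5 also fell under compression. In control against Day 0, 5 of the 8 tested members passed the threshold (3 higher, 2 lower), where 40.2% of all tested genes did (22.6% higher, 17.6% lower). In compression against Day 0, 7 passed (3 higher, 4 lower), where 49.1% of all tested genes did (26.6% higher, 22.5% lower). No difference of the family from these backgrounds was tested. The median log2 fold change of the members was 0.12 and 0.15, against 0.02 and 0.017 over all tested genes. The Day 0 libraries are shared, so the same calls in both comparisons are not independent of each other.

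**Figure D2:**
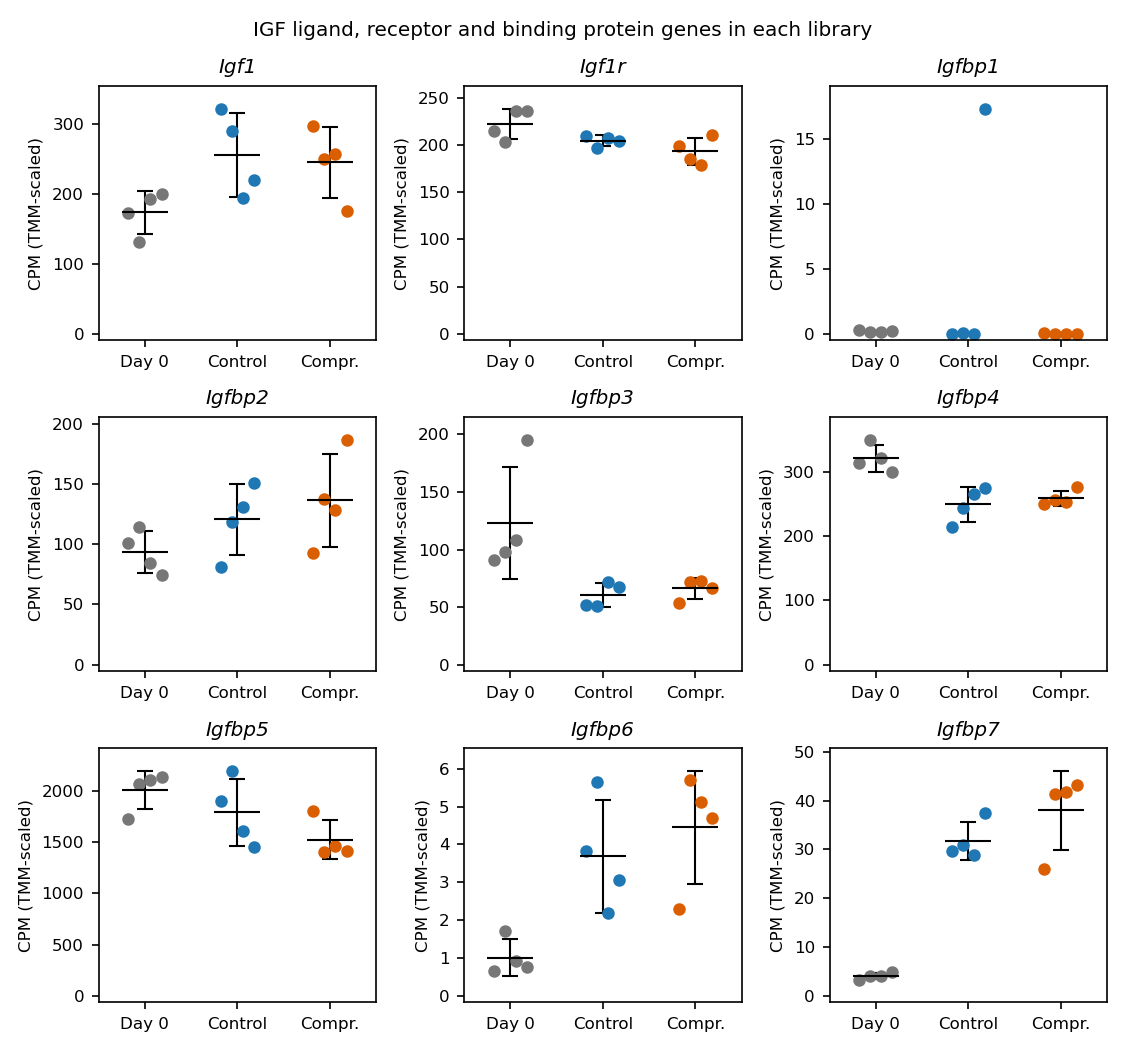
Level of each member in CPM (vertical axis, 1 panel per gene) in the 4 libraries of Day 0, Day 2 control and Day 2 compression. Points are libraries and bars are mean ± SD, except for Igfbp1, whose panel has points only. Igfbp7 sits between 3.25 and 4.88 CPM at Day 0 and between 25.9 and 43.3 CPM in the Day 2 libraries, while Igfbp1 is near 0 in all but 1 control library.

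Igf1 encodes the ligand that acts after birth as the main mediator of growth hormone and before birth as a local growth factor. It measured 173, 131, 192 and 199 CPM in Day 0 replicates 1 to 4, 322, 289.8, 194 and 219.5 CPM in controls, and 298, 249.9, 258 and 175 CPM under compression. The 2 highest values were in control replicate 1 and compression replicate 1, and 1 library of each Day 2 group (control replicate 3, compression replicate 4) lay within the Day 0 range. Its log2 fold change over Day 0 was 0.56 in controls (SE 0.19, edgeR adjusted p = 0.0328) and 0.49 under compression (SE 0.19, adjusted p = 0.0465). These were the weakest calls among the members that rose. Over 18 alternatives, the control call was kept in 11 and the compression call in 7, with fold changes of 0.37 to 1.05 and 0.36 to 1.5. The highest of these came from a fit with the length index as a covariate. The control call was lost without Day 0 replicate 1 or 2 or control replicate 1 or 2 (adjusted p-values of 0.0676 to 0.104), with limma-voom and quality weights (0.102), with no filter (0.0576) and in 1 other alternative (0.0569). The compression call was lost without Day 0 replicate 1, 2 or 3 or compression replicate 1, 2 or 3 (0.0536 to 0.141), with RLE factors (0.0512), with no filter (0.0751), with compression replicates 2 and 3 summed (0.088), with these summed and control replicate 4 left out (0.096) and in 1 other alternative (0.0762).

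Igf1r, the tyrosine kinase receptor, had the smallest fold changes against Day 0. It measured 215, 203, 236 and 236 CPM at Day 0, 210.2, 197, 207 and 205 CPM in controls, and 199, 185, 179 and 211 CPM under compression. All groups overlapped, and the coefficient of variation within a group was between 2.72% and 7.31%, the lowest spread of the members in controls. The log2 fold change was -0.12 in controls (SE 0.07, adjusted p = 0.161) and -0.20 under compression (adjusted p = 0.0194), where the call was kept in 11 of 18 alternatives. It was lost without Day 0 replicate 3 or compression replicate 2 or 3 (adjusted p-values of 0.06 to 0.0665), with compression replicates 2 and 3 summed (adjusted p = 0.0618), with these summed and control replicate 4 left out (adjusted p = 0.0599), with upper-quartile factors (-0.17, adjusted p = 0.0655) and with the length index as a covariate (-0.07, adjusted p = 0.725).

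Igfbp7 had the largest change of the tested members. It encodes a secreted protein that binds IGFs only weakly and is found around blood vessels and in basement membranes. It measured 3.25, 3.99, 4.08 and 4.88 CPM at Day 0, 29.8, 30.9, 28.9 and 37.5 CPM in controls, and 25.9, 41.4, 41.7 and 43.3 CPM under compression. Every Day 2 library lay far above every Day 0 library. The level was 7.74-fold higher in controls (log2 fold change 2.95, SE 0.18, edgeR adjusted p = 9.46e-08) and 9.32-fold higher under compression (3.22, SE 0.18, adjusted p = 3.61e-08). A larger rise was found for 1.17% of all tested genes in controls and 1.38% under compression. Both calls were kept in all 18 alternatives.

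Igfbp6, whose protein prefers IGF2 over IGF1, rose from a low level. It measured 0.642, 1.71, 0.917 and 0.749 CPM at Day 0 (84 counts in all), 3.83, 5.66, 2.18 and 3.07 CPM in controls, and 2.28, 5.70, 5.14 and 4.70 CPM under compression. Neither Day 2 group overlapped Day 0, although Day 0 replicate 2 and control replicate 3 came close. The log2 fold change was 1.94 in controls (SE 0.38, adjusted p = 0.00122) and 2.21 under compression (SE 0.38, adjusted p = 0.000338). The control call was kept in all 18 alternatives and the compression call in 17, the exception being the fit with the length index as a covariate (1.28, adjusted p = 0.225).

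Igfbp3, the main carrier of IGF in serum, fell in both comparisons. It measured 90.7, 98.3, 109 and 196 CPM at Day 0, 51.6, 51.05, 71.98 and 67.6 CPM in controls, and 53.4, 72.2, 72.7 and 66.9 CPM under compression. Day 0 replicate 4 was far above the other Day 0 libraries, and neither Day 2 group reached the lowest Day 0 value. The log2 fold change was -1.03 in controls (SE 0.22, adjusted p = 0.00283) and -0.90 under compression (SE 0.22, adjusted p = 0.00498). Without Day 0 replicate 4 the control value was -0.73 (adjusted p = 0.00139) and the compression value -0.60 (adjusted p = 0.0035). With the length index as a covariate the compression value was -0.97 and no longer passed (adjusted p = 0.204). Endothelial markers were lower at Day 2 as well. Of 12 markers, 12 passed as lower in both comparisons, where 17.6% (control) and 22.5% (compression) of all tested genes did. Their sum was 403, 455, 488 and 657 CPM at Day 0, 83.0 to 138 CPM in controls and 114 to 134 CPM under compression. The summed red cell and cartilage markers were also lower at Day 2, without overlap with Day 0. Day 0 replicate 4 was the highest library for Igfbp3 and for the endothelial, cartilage and smooth muscle sums. The part of these cell types in the fall of Igfbp3 was not tested. In bulk tissue, fewer cells of a type and less RNA per cell cannot be told apart.

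Igfbp4, which restrains IGF until PAPP-A cleaves it, fell by less but with little spread. It measured 314, 351, 321 and 301 CPM at Day 0, 214, 244, 266 and 274 CPM in controls, and 249, 256, 253 and 276 CPM under compression. All 8 Day 2 libraries lay below all 4 Day 0 libraries. The log2 fold change was -0.37 (SE 0.08, adjusted p = 0.00203) and -0.31 (SE 0.08, adjusted p = 0.00446), and both calls were kept in all 18 alternatives. The 4 members whose Day 2 libraries did not overlap Day 0 were thus Igfbp3, Igfbp4, Igfbp6 and Igfbp7, in controls, where 37.9% of tested genes did not overlap, and also under compression, where 43.0% did not.

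Igfbp5, a matrix-binding protein and the most abundant of the family here, measured 1733, 2072, 2109 and 2141 CPM at Day 0, 1902, 2200.0, 1615 and 1459 CPM in controls, and 1811, 1409, 1464 and 1417 CPM under compression. Controls spread over the Day 0 range and beyond it on both sides, and under compression only replicate 1 reached that range. Its log2 fold change was -0.17 in controls (SE 0.12, adjusted p = 0.309) and -0.40 under compression (SE 0.12, adjusted p = 0.0164). The second call was kept in 16 of 18 alternatives and lost without compression replicate 2 (adjusted p = 0.0514) and with the length index as a covariate (0.07, adjusted p = 0.828).

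Igfbp2, a binding protein of fetal tissues that also binds integrins, measured 101, 114, 84.1 and 74.6 CPM at Day 0, 81.5, 119, 131 and 151 CPM in controls, and 92.8, 138, 128 and 187 CPM under compression. Replicate 1 was the lowest library of each Day 2 group and lay within the Day 0 range. The log2 fold change was 0.37 in controls (SE 0.22, adjusted p = 0.206) and 0.55 under compression (SE 0.22, adjusted p = 0.0556), and neither passed the threshold. The control value passed in 1 of 18 alternatives (0.51, adjusted p = 0.0359, with limma-voom and quality weights). The compression value passed in 6, of which 5 were positive, among them those without Day 0 replicate 2 (0.65, adjusted p = 0.0445) and without compression replicate 1 (0.68, adjusted p = 0.0186). With the length index as a covariate the sign turned, to -0.28 (adjusted p = 0.0751) in controls and to -0.74 under compression, which passed in the opposite direction (adjusted p = 0.00953).

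**Figure D3:**
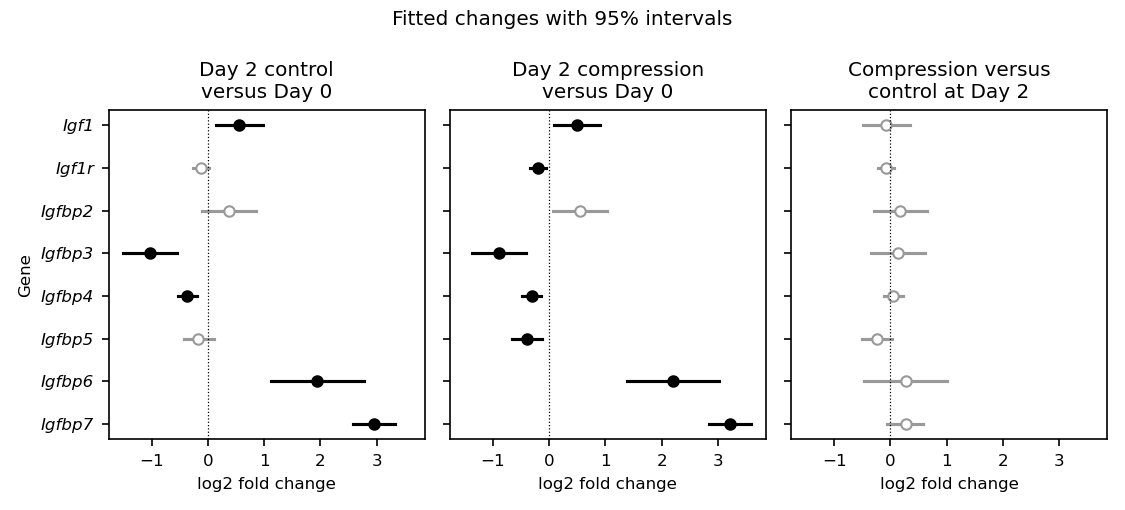
Log2 fold changes of the 8 tested members (points) with 95% intervals (lines) in the 3 comparisons. In the comparisons with Day 0, Igfbp6 and Igfbp7 lie to the right of 0 and Igfbp3 and Igfbp4 to the left, and in compression against control every interval crosses 0.

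Igfbp1, made chiefly by liver and decidua and repressed by insulin, was close to undetected in all but 1 library. It had 6, 2, 3 and 8 counts in Day 0 replicates 1 to 4 (0.257, 0.142, 0.138 and 0.240 CPM), 0, 2, 0 and 272 counts in controls (0, 0.0686, 0 and 17.4 CPM), and 1, 0, 0 and 0 counts under compression. Control replicate 4 alone held more counts than the other 11 libraries together. Its level was 778 times that of the other 3 controls pooled (95% interval 213 to 6455, counting error only) and 84.6 times that of Day 0 (53.1 to 143). In the same library 14 of 14 liver markers were detected, among them the genes of albumin (Alb, 638 CPM) and alpha-fetoprotein (Afp, 745 CPM), while Alb stayed at or below 2.23 CPM and Afp at or below 16.1 CPM elsewhere.

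Among the other 11 libraries, Igfbp1 was higher at Day 0 than at Day 2. The 4 Day 0 libraries held 19 counts and the 7 Day 2 libraries 3 counts, a ratio of 14 after scaling for depth (95% interval 4.13 to 74.0, counting error only). The summed liver markers went the same way, at 6.97 to 19.1 CPM at Day 0, 0.837 to 2.07 CPM in those 3 controls and 2.32 to 3.55 CPM under compression. Their part in the level of Igfbp1 was not tested. A count of 0 in 1 library allows up to 3 counts, which is 0.0965 to 0.105 CPM in the libraries with 0 counts. The Day 0 values (0.138 to 0.257 CPM) lie above this. They rest on 2 to 8 counts per library, close to what a single library can resolve. The neighbour gene Igfbp3 was at 67.6 CPM in control replicate 4, within the range of the other Day 2 libraries.

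**Figure D4:**
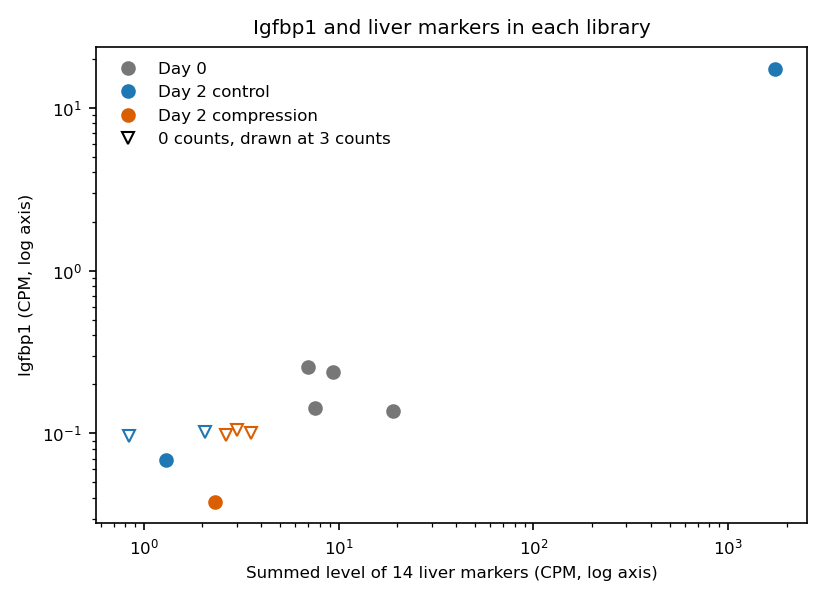
Igfbp1 (vertical axis, CPM) against the summed CPM of 14 liver markers (horizontal axis) in the 12 libraries, both axes logarithmic. Libraries with 0 counts of Igfbp1 are drawn as open triangles at the level of 3 counts. Control replicate 4 lies alone at 1732 CPM of liver markers and 17.4 CPM of Igfbp1.

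Compression was then compared with control at Day 2, the question named by the study's design. With edgeR 0 of the 8 tested members passed the threshold, as did 0% of all tested genes. At an unadjusted p under 0.05 the count was 0 members and 1839 genes (12.1%). The groups overlapped for all 8 members, while 5.77% of tested genes did not overlap. DESeq2 called 71 genes, with 0 members among them. The median log2 fold change of the members was 0.09, and 5 of 8 were positive, where 51.0% of all genes were.

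The 95% intervals of the log2 fold change set the range of each difference. They were narrow for Igf1r (-0.08, 95% interval -0.22 to 0.06, adjusted p = 0.596) and Igfbp4 (0.05, -0.11 to 0.22, adjusted p = 0.79). They were wider for Igf1 (-0.07, -0.48 to 0.35), Igfbp2 (0.18, -0.29 to 0.66) and Igfbp3 (0.13, -0.35 to 0.61), and widest for Igfbp6 (0.27, -0.46 to 1.0). For all but Igfbp6, differences of 2-fold or more lay outside the interval. The smallest p-values belonged to Igfbp5 (-0.23, -0.50 to 0.03, unadjusted p = 0.0813, adjusted p = 0.454) and Igfbp7 (0.27, -0.06 to 0.59, unadjusted p = 0.0981, adjusted p = 0.476).

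Compression replicate 1 stood apart for both genes. Igfbp7 stood at 25.9 CPM in that library and at 41.4 to 43.3 CPM in the other 3, against 28.9 to 37.5 CPM in controls, and Igfbp5 stood at 1811 CPM against 1409 to 1464 CPM in the other 3. Without it the fold change of Igfbp7 was 0.41 (adjusted p = 0.111) and that of Igfbp5 was -0.33 (adjusted p = 0.175). Limma-voom with quality weights, which gives deviating libraries less weight, called Igfbp7 (0.39, adjusted p = 0.0221) and no other member. The same setting called 1913 genes in this comparison, where the filter had kept 15246, so 1 call among 8 tested members does not set the family apart. Whether the members differed from that background was not tested. With the length index as a covariate Igfbp7 was at -0.04 (adjusted p = 0.97) and Igfbp5 at 0.01 (adjusted p = 0.996).

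Over the 8 Day 2 libraries, with both groups together, some members varied with each other. All 28 pairs of the 8 tested members were correlated on the log2 CPM scale, with p-values from exact permutations adjusted over the 28. Igf1 and Igfbp2 were opposed (Pearson r = -0.88, exact p = 0.00412, adjusted p = 0.0384, Spearman rho = -0.93, exact p = 0.00223, adjusted p = 0.0208). So were Igf1 and Igfbp4 (r = -0.85, exact p = 0.00345, adjusted p = 0.0384, rho = -0.95, exact p = 0.00114, adjusted p = 0.016). Control replicate 1 and compression replicate 1, high in Igf1, were the lowest of their groups in Igfbp2 and Igfbp4, and compression replicate 4, lowest in Igf1, was the highest in Igfbp2. Igfbp2 and Igfbp4 rose and fell together (r = 0.88, exact p = 0.00303, adjusted p = 0.0384, rho = 0.95, exact p = 0.00114, adjusted p = 0.016).

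Leaving out the 2 libraries farthest from the median of the first gene gave r = -0.94 for Igf1 with Igfbp2, -0.89 for Igf1 with Igfbp4 and 0.69 for Igfbp2 with Igfbp4. Without the liver-containing control replicate 4 the first pair stood at -0.87 and the second at -0.85, and with compression replicates 2 and 3 averaged at -0.89 and -0.85. Another pair, Igfbp3 with Igfbp5, passed by Pearson's r only (r = -0.90, exact p = 0.00707, adjusted p = 0.0495, rho = -0.71, adjusted p = 0.258, and r = -0.77 without the 2 farthest libraries).

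The length index moved with these genes over the same 8 libraries, although 0 of its relations passed when adjusted over the 16 relations of members with library indices. It stood at r = 0.82 with Igfbp5 (exact p = 0.0168, adjusted p = 0.0576, rho = 0.86, adjusted p = 0.0857), and at r = -0.80 with Igfbp3 (exact p = 0.0279, adjusted p = 0.0744, rho = -0.71, adjusted p = 0.132). Without the 2 farthest libraries these were 0.80 and -0.80. The index was also set against Igf1 (r = 0.64, adjusted p = 0.152, rho = 0.74), Igfbp2 (r = -0.80, adjusted p = 0.0576, rho = -0.81) and Igfbp4 (r = -0.70, adjusted p = 0.0999, rho = -0.79). Without the 2 farthest libraries, compression replicate 4 and control replicate 1, the values were 0.18, -0.46 and -0.15. With all libraries kept, r was 0.93, -0.97 and -1.0 within the 4 controls. Within the 4 compression libraries it was 0.74, -0.89 and -0.65. Igfbp7 rose with the summed CPM of 76 ribosomal protein genes (r = 0.89, exact p = 0.00263, adjusted p = 0.0421, rho = 0.90, adjusted p = 0.073, and r = 0.81 without the 2 farthest libraries). Igfbp7 stood at r = -0.84 with the length index (adjusted p = 0.0576, rho = -0.81, adjusted p = 0.0871, and r = -0.84 without the 2 farthest libraries). The exonic lengths of the members are 16791 bases for Igf1r, 9904 for Igf1, 6006 for Igfbp5, 4416 for Igfbp4, 3130 for Igfbp3, 1847 for Igfbp2, 1209 for Igfbp7 and 1112 for Igfbp6. The part of this index in the relations between members was not tested.

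**Figure D5:**
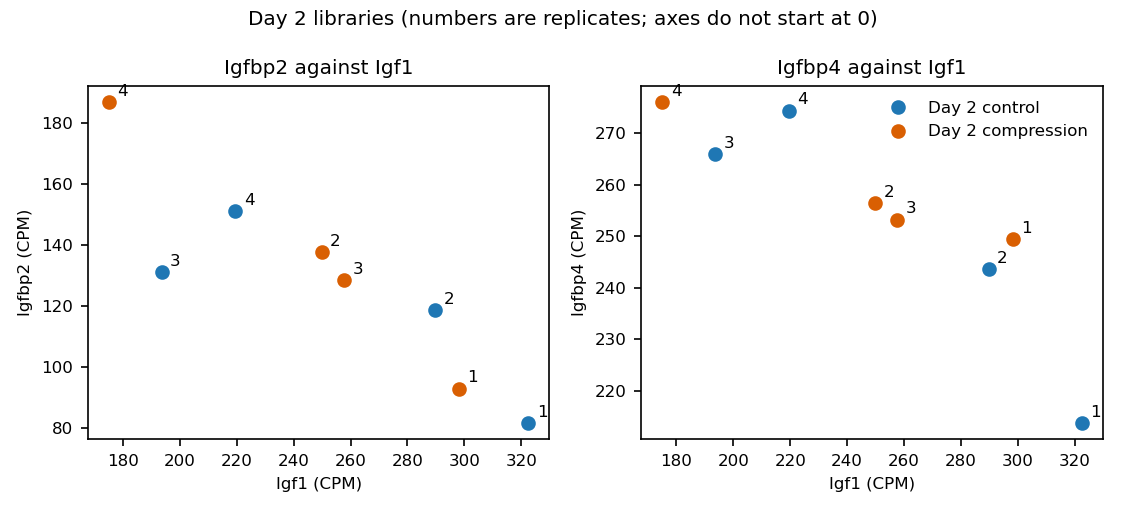
Igf1 (horizontal axis, CPM) against Igfbp2 and Igfbp4 (vertical axes, CPM) in the 4 control and 4 compression libraries of Day 2. The axes do not start at 0. Points of both groups run from upper left to lower right. Computed on log2 CPM, r was -0.88 for Igfbp2 and -0.85 for Igfbp4.

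The genes most like each member over all 12 libraries were found among 11285 genes (11286 for Igfbp6) with a mean of at least 5 CPM, by Pearson's r of log2 CPM. The points share the Day 0 to Day 2 change and the libraries' depth, so r is a description. Igfbp7 had the closest matches, Emp2 (0.996), Nuak2 (0.995) and Veph1 (0.994). Igfbp4 followed, with the carboxypeptidase-like gene Cpxm1 (0.991), Zfp691 (0.983) and Pkdcc (0.98). Igfbp3 was closest to S1pr1 (0.961), Arhgap18 (0.959) and Acvrl1 (0.957), of which S1pr1 and Acvrl1 encode receptors best known from endothelium. Igfbp2 was closest to Tmem258 (0.975), Cope (0.972) and the ribosomal protein gene Rps19 (0.968). For Igf1 they were Rp2h (0.953), Atl3 (0.949) and Sytl4 (0.945), and for Igf1r Fat4 (0.962), Wdfy3 (0.939) and Ep400 (0.938). Igfbp5 was closest to Scn2b (0.937), Map4k2 (0.929) and Rspo1 (0.927), and Igfbp6 to Epha1 (0.966), Smco4 (0.963) and Eps8l2 (0.954).

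The rest of the pathway was read from 6 lists of 60 genes, of which 55 were tested. In control against Day 0, 11 were higher and 15 lower, and in compression against Day 0, 12 were higher and 17 lower. In compression against control 0 passed, as did 0% of all tested genes. There 7 had an unadjusted p under 0.05, where 12.1% of all tested genes did. Among all tested genes 40.2% passed in control against Day 0 (22.6% higher, 17.6% lower). The share was 49.1% in compression against Day 0 (26.6% higher, 22.5% lower). Neither these counts nor those of single lists were tested against that background. The median log2 fold change of the 55 was -0.06, -0.09 and -0.03.

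Among ligands and receptors, Igf2 was the most abundant transcript of the system per length, at 613 ± 79.8 RPKM at Day 0, 824 ± 122 in controls and 775 ± 69.3 under compression. In each library its RPKM was 27.1 to 53.1 times that of Igf1. It rose by 0.43 (adjusted p = 0.00901) and 0.34 (adjusted p = 0.0248) on the log2 scale in controls and under compression. Its values are uncertain, since 62.8% of its exonic length is shared with the gene model Gm49394 on the same strand. Igf2r, the receptor that takes up IGF2 for degradation, fell by 0.52 (adjusted p = 0.00125) in controls and 0.59 (adjusted p = 0.000384) under compression, and the binding protein-like gene Igfbpl1 fell from 2.88 ± 1.06 to 0.509 ± 0.154 CPM in controls (log2 fold change -2.51, adjusted p = 3.82e-05).

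Of 7 tested genes of the proteases that free IGF from binding proteins and of their inhibitors, 5 were higher and 1 lower in controls, and 4 were higher and 1 lower under compression. Htra1, a secreted serine protease, measured 5.502 to 6.71 CPM at Day 0, 31.1 to 38.2 CPM in controls and 28.5 to 36.4 CPM under compression (log2 fold change 2.49 in controls, SE 0.11, adjusted p = 8.44e-09, and 2.48 under compression, adjusted p = 1.23e-08). Pappa2, a pappalysin that cleaves IGFBP3 and IGFBP5, measured 61.2 ± 12.1, 105 ± 7.83 and 84.1 ± 4.47 CPM in the 3 groups, and rose by 0.77 (adjusted p = 0.000188) and 0.46 (adjusted p = 0.00567). The stanniocalcins, which inhibit pappalysins, moved apart. Stc1 fell by 0.87 (adjusted p = 0.000108) and 0.72 (adjusted p = 0.000357), and Stc2 rose by 0.86 (adjusted p = 0.00266) and 0.97 (adjusted p = 0.000861).

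Of 10 adaptors and phosphatases at the receptor, 1 was higher (Grb14, an inhibitory adaptor, 0.32) and 2 lower (Ptpn11 -0.27, Ptpn1 -0.24) in controls, and 2 were higher and 1 lower under compression. Of 18 genes of PI3K, AKT and mTOR, 1 was higher (Pik3cb, a catalytic subunit, 0.33) and 3 lower (Mtor -0.34, Rptor -0.26, Tsc1 -0.21) in controls, and 1 was higher and 6 lower under compression. Of 12 FOXO factors and genes that insulin represses, 3 were higher and 4 lower in controls. Pdk4, a kinase that restrains pyruvate oxidation, rose by 1.77 (adjusted p = 0.000363) and Txnip, which limits glucose uptake, by 0.67 (adjusted p = 1.28e-05), while Sesn3 (-0.55) and Foxo4 (-0.23) fell. All 3 genes of the proteins that bind Igf2 mRNA fell in both comparisons, Igf2bp1 by 0.90 (adjusted p = 6e-05), Igf2bp2 by 0.44 and Igf2bp3 by 0.35 in controls, and by 1.09, 0.51 and 0.43 under compression.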

How the data were processed

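The authors deposited unnormalized read counts for 24421 gene symbols in 12 library columns. Per the submitters' processing notes, fastp, STAR and the mm10 build were used. Tool versions, the counting step, the annotation, the strand setting and the handling of multi-mapping reads were not given in the sources used here, so reads of overlapping genes cannot be told apart. Per the labels' protocols, RNA was purified with RNeasy Micro and libraries were made with KAPA mRNA HyperPrep.

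Groups and replicate numbers came from the sample titles. The main test was edgeR 4.0.16 in R 4.3.3. The filter on low counts was filterByExpr by group (min.count 10, min.total.count 15), library sizes were scaled with TMM, and all 12 libraries entered 1 robust quasi-likelihood fit with the group as the only term. The p-values were adjusted by the Benjamini-Hochberg method over all 15246 tested genes, with a threshold of 0.05. Every adjusted p of a fold change in the text comes from this edgeR test unless another tool is named. DESeq2 1.42.0 and limma 3.58.1 (voom with quality weights) were alternatives, as were other scalings, no filter, 8 libraries only, leaving out each library and a replicate block. A fit with the length index as a covariate, and one without control replicate 4 and with compression replicates 2 and 3 summed, were chosen after seeing the data. CPM uses TMM-scaled library sizes, RPKM divides CPM by the union exon length in the GENCODE annotation of GRCm38, and log2 CPM has a prior count of 2. The edgeR test was tried on simulated counts with known changes between compression and control. The other steps were not tested on simulated data.

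The 9 members and all lists were chosen with earlier results of these data known. Named are all members, up to 4 genes per pathway list with the smallest p in control against Day 0, any list gene called in compression against control (0 were), and the 3 genes with the highest correlation with each tested member, with predicted genes left out. The 9 marker lists are liver, macrophage and leukocyte, endothelium, lung epithelium, smooth muscle, lung mesenchyme, mesothelium, cartilage and red cells.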

Additional observations from a re-analysis of the deposited data

Results flagged for a closer look

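In each group of 4 libraries, a library was singled out when its gap to the nearest of the others, divided by the range of the group, was above Dixon's 95% critical value of 0.829. This held for 5 of the 27 combinations of member and group. Chance flags about 1 in 20 where values have a normal spread. That rate does not hold for counts near 0, such as those of Igfbp1. Igfbp1 was at 17.4 CPM in control replicate 4, the library with liver transcripts, where the other controls were at 0, 0.0686 and 0 CPM. Igfbp1 was also singled out in compression replicate 1 at 0.0380 CPM, which is 1 count against 0 in the other 3 libraries. Igfbp5 was lowest in Day 0 replicate 1 at 1733 CPM, with the others at 2072 to 2141 CPM, and highest in compression replicate 1 at 1811 CPM, with the others at 1409 to 1464 CPM. Igfbp7 was lowest in compression replicate 1 at 25.9 CPM, with the others at 41.4 to 43.3 CPM.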

How the results depend on the processing

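Igfbp3, Igfbp4, Igfbp6 and Igfbp7 kept their calls against Day 0 in every alternative fixed at the start, for both Day 2 groups. Of 162 counts of calls recomputed under the alternatives, 148 stayed within 1.5 times the main count. In compression against control, the main count of 0 genes became 71 with DESeq2, 1913 with limma-voom and quality weights, 2 with only the 8 libraries compared, 0 to 46 when 1 library was left out (46 without control replicate 4, 19 without compression replicate 1, 1 without control replicate 3 and 1 without compression replicate 4), and 8 without control replicate 4 and with compression replicates 2 and 3 summed. Quality weights also gave 1 called member and 9 called pathway genes there. In compression against Day 0, called members were 4 to 7 when 1 library was left out, the lowest without compression replicate 2, and the length index as a covariate left 4100 genes, 4 members and 19 pathway genes. Signs turned in compression against control for Igf1 (0.13) and Igfbp4 (-0.01) with quality weights. When 1 library was left out, Igf1 ran from -0.18 to 0.06 (positive without control replicate 1 or compression replicate 4), Igfbp2 from -0.01 to 0.33 (negative without compression replicate 4) and Igfbp4 from -0.01 to 0.10 (negative without control replicate 1). With the length index as a covariate they turned for Igf1 (0.45), Igfbp2 (-0.46), Igfbp4 (-0.11), Igfbp5 (0.01), Igfbp6 (-0.27) and Igfbp7 (-0.04) there, for Igfbp2 (-0.28) and Igfbp5 (0.06) in control against Day 0, and for Igfbp2 (-0.74) and Igfbp5 (0.07) in compression against Day 0. The causes were not tested. Without the filter Igfbp1 was not called in any comparison (-8.26, 4.33 and -3.94, adjusted p = 0.441, 0.133 and 0.441, in compression against control, control against Day 0 and compression against Day 0). Deviations of same-numbered libraries from their group means correlated at -0.18 to 0.17, which does not settle whether replicate numbers pair libraries. A fit with the replicate number as a block called 0, 6569 and 7895 genes in these comparisons, against 0, 6131 and 7489 in the main fit. It called 0, 4 and 6 members, without Igf1 (0.54, adjusted p = 0.0569, and 0.47, adjusted p = 0.0762, against Day 0). Depth limits Igfbp1 most, since 3 counts are 0.0899 to 0.214 CPM over the 12 libraries.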

Other observations

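Marker sums of other cell types are given as ranges over the 4 libraries of Day 0, control and compression, with no test of the sums. Lung epithelium summed to 1331 to 1514 CPM at Day 0, 2312 to 2495 CPM in controls and 2492 to 3109 CPM under compression. Its marker Sftpc alone had means of 73.0, 574 and 1017 CPM in these groups. In compression against control 0 of the 10 epithelial markers passed, as did 0% of all tested genes. Macrophage and leukocyte markers summed to 233 to 283, 276 to 421 and 380.3 to 444 CPM, and mesothelium to 151 to 204, 247 to 355 and 264 to 275 CPM. Red cell markers summed to 1059 to 2185 CPM at Day 0 and to 109.5 to 191 CPM in controls and 114 to 209 CPM under compression. Cartilage markers summed to 365 to 431, 208 to 289 and 228 to 301 CPM, smooth muscle to 330.0 to 449, 266 to 422 and 274 to 389 CPM, and lung mesenchyme to 5142 to 6118, 4749 to 6331 and 5401 to 6639 CPM. The sums of smooth muscle and of lung mesenchyme overlapped in all 3 groups. Col1a1 (mean 1311 CPM at Day 0) and Col3a1 (2938 CPM) hold most of the mesenchyme sum. Of the 9 mesenchyme markers, 1 was higher and 5 lower in controls against Day 0, where 22.6% and 17.6% of all tested genes were. Under compression 2 were higher and 4 lower, where 26.6% and 22.5% of all tested genes were. The part of any of these in the levels of the IGF genes was not tested.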
